A study of Mus musculus with 6 samples.

Results

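The type I interferon response was followed through 39 of its induced genes in 6 mouse tumour libraries. The genes were taken by symbol from a table of 19288 genes, and all 39 symbols were found there, each with 1 gene ID. All 39 also passed the filter on low counts that left 13632 genes for testing. The tumours were grown under the skin from LLC1 cells, the Lewis lung carcinoma line, and were removed 30 days after implantation. All hosts carried the beta-hCG transgene and came from crosses of a CB57BL/6 female (spelled as in the labels) with a beta-hCG transgenic FVB male, so no host without the transgene was compared. The transgenic group (2 libraries) came from such mice with neither surgery nor supplement named. The vehicle group (2 libraries) came from ovariectomized transgenic mice given vehicle, and the progesterone group (2 libraries) from ovariectomized transgenic mice given progesterone, both for 28 days. The labels give no ages, do not say which promoter drives the transgene, and do not say whether the numbered libraries of a group were separate animals, so a p-value here reflects only library-to-library spread, which may be technical.

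Type I interferons are secreted by cells that sense foreign or misplaced nucleic acid. They bind the receptor made of IFNAR1 and IFNAR2, whose kinases JAK1 and TYK2 switch on the transcription factor complex ISGF3. This complex, which contains STAT2 and IRF9, binds the interferon-stimulated response element (ISRE) in the promoters of antiviral genes. Interferon gamma, made mainly by T and NK cells, uses another receptor and acts through the gamma-activated site (GAS), and many induced genes answer to both. In tumours both the malignant cells and the infiltrating host cells can carry this response. Here both are of mouse origin, and the counts do not separate them.

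Promoter windows of RefSeq (build GRCm38.p6, from 250 bases before to 50 bases after the annotated start) were available for 30 of the 39 genes. The ISRE core was searched on both strands as a pair of GAAA blocks with any 2 bases between them, and the GAS as TTCNNNGAA, which is its own reverse complement. At least 1 ISRE core lay in a window of 13 of the 30 genes (43.3%), against 3.99% of the 27025 genes with windows (3.44% of 32851 windows). A GAS match lay in windows of 9 of the 30 (30.0%), against 9.55% of all genes with windows (8.30% of windows). The stretches below show the element for 8 genes that differ widely in their pattern over the tumours, and the GAS match of Irf1. Only bases before the start are printed, 5′ to 3′ on the gene's strand, with the ISRE cores in capitals in the first 8 and the GAS match in capitals in Irf1; overlapping cores run together. Bst2 also has a GAS match that overlaps its first core and is not marked. In Isg15 3 overlapping cores form 1 block. The printed cores lie on the opposite strand in Ifit1 and Ifit3 (2 each) and in Rsad2 and Trim30a (1 each). Trim30a has a further core after the start in another window, which is not printed. Isg15 lies at chr4:156200860-156200911 (minus strand), Ifit1 at chr19:34640770-34640828 (plus), Ifit3 at chr19:34583358-34583431 (plus) and Oas1a at chr5:120907526-120907560 (minus). Oas3 lies at chr5:120777710-120777749 (minus), Bst2 at chr8:71537572-71537617 (minus), Rsad2 at chr12:26456548-26456587 (minus), Trim30a at chr7:104465205-104465244 (minus) and Irf1 at chr11:53769909-53769947 (plus).
Isg15: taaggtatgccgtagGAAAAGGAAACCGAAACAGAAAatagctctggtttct
Ifit1: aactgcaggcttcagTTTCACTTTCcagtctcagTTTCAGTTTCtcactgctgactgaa
Ifit3: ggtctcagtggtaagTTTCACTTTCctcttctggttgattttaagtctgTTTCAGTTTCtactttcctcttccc
Oas1a: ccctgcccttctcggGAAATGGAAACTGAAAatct
Oas3: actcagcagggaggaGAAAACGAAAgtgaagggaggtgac
Bst2: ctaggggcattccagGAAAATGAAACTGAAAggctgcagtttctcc
Rsad2: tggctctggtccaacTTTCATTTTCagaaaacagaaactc
Trim30a: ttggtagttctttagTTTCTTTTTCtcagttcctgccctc
Irf1: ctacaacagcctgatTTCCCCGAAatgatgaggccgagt

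The 6 libraries held 19526775 to 30083925 counts. Counts were scaled by the trimmed mean of M values (TMM) to a common library size (CPM), and 3 counts, the limit that a count of 0 allows, corresponded to 0.103 to 0.159 CPM. Transgenic library 2 was the most often extreme, being the highest of the 6 in 23.1% and the lowest in 22.2% of all genes tested. Vehicle library 2 was the least often extreme, at 11.0% and 9.73%. Of lung epithelial lineage genes, Sftpc and Scgb1a1 had 0 to 2 counts and Epcam at most 0.222 CPM, Cdh1 had 1.70 to 3.44 CPM, while the keratins Krt8 and Krt18 had 125 to 393 CPM and vimentin (Vim) 3667 to 4532 CPM. Macrophage markers were plentiful, at a summed 1311 to 2960 CPM over 13 genes. T cell markers were low, at a summed 1.64 to 14.2 CPM over 10 genes.

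Levels of the 39 genes per kilobase of exon spanned more than 3 orders of magnitude on this scale. The entry inhibitor Ifitm3 led with a mean of 553 CPM per kb over the 6 libraries, followed by the tether of budding virions Bst2 at 56.0 and the secreted glycoprotein Lgals3bp at 21.6. Trim25 had 19.3, Irf1 17.8, Ifi35 14.9 and Eif2ak2 13.6 CPM per kb. From Lgals3bp down to Eif2ak2, each gene and the next in this order had overlapping ranges over the libraries. Among genes used as classic readouts of interferon, Isg15 had 6.45 and Ifit2 6.42 CPM per kb (ranks 13 and 14 of the 39). Lower down, Ifit3 had 1.76, Irf7 1.64, Ifit1 1.08, Usp18 0.970 and Mx1 0.411 CPM per kb (ranks 27 to 37). Mx2 was the lowest at 0.266, with only 9 to 42 counts per library, so its single values carry a large counting error.

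**Figure D1:**
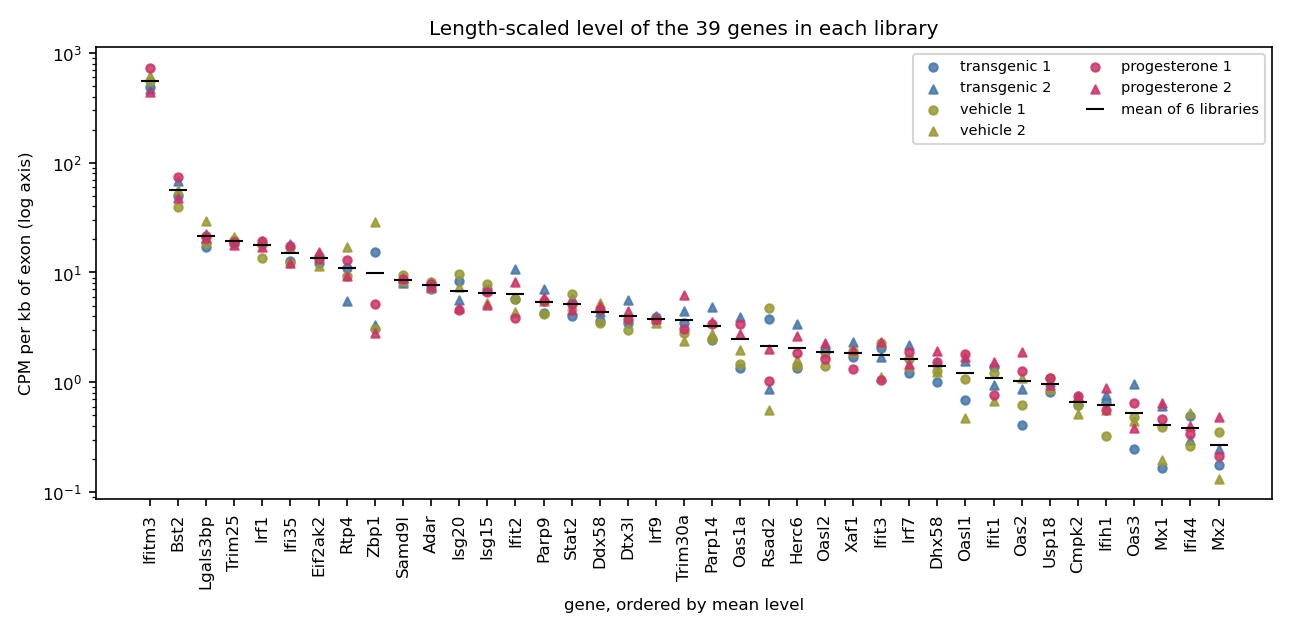
Level of each of the 39 genes in CPM per kb of exon (log axis), ordered by the mean of the 6 libraries (black bar), with library 1 of each group as a circle and library 2 as a triangle. Ifitm3 stands above all others at a mean of 553, Mx2 is last at 0.266, and Zbp1 and Rsad2 have the widest scatter between libraries.

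The genes did not behave as 1 block over the tumours. Of the 39, 11 were highest in transgenic library 2 (23.1% of all genes tested), 11 in progesterone library 2 (17.3%) and 7 in vehicle library 1 (15.35%). A further 6 were highest in vehicle library 2 (11.0%), 4 in progesterone library 1 (19.1%) and 0 in transgenic library 1 (14.2%). In turn 12 were lowest in transgenic library 1, which was lowest for 16.9% of all genes tested. The median range from the lowest to the highest library was 0.83 on the log2(CPM + 0.5) scale, against 0.66 over all genes tested. It ran from 0.21 to 3.31 among the 39. Genes with an ISRE core in their window had a median range of 0.98 (n = 13) and those with a window but no core 0.76 (n = 17), which is a description of these windows only.

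By a measure given below, libraries of the same group often differed more than the groups did, as was also so for most of all genes tested. That measure sets the larger of 2 single-library differences against a difference of 2-library means, which favours the first. In the transgenic pair, 29 of the 39 genes (74.4%) were higher in library 2 than in library 1, against 51.5% of all genes, with a median difference of 0.29 on that log2 scale against 0.02. In the vehicle pair 18 (46.2%) were higher in library 2, and in the progesterone pair 22 (56.4%). The mean of log2(CPM + 0.5) over the 39 genes was 3.65 and 3.91 in transgenic libraries 1 and 2, 3.68 and 3.69 in vehicle tumours, and 3.78 and 3.88 in progesterone tumours. The transgenic libraries thus held both the lowest and the highest mean. Summed macrophage markers also differed within that pair, at 1311 and 2753 CPM, as did summed T cell markers at 3.33 and 14.2 CPM and summed fibroblast markers at 7792 and 2024 CPM. Most of the fibroblast sum was Col3a1 (6169 and 1414 CPM), and 3 of its 8 genes, Col1a1, Col1a2 and Pdgfrb, were instead higher in transgenic library 2. The part of these cell types in the difference was not tested. In such bulk samples, fewer cells of a type and less RNA per cell cannot be told apart.

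**Figure D2:**
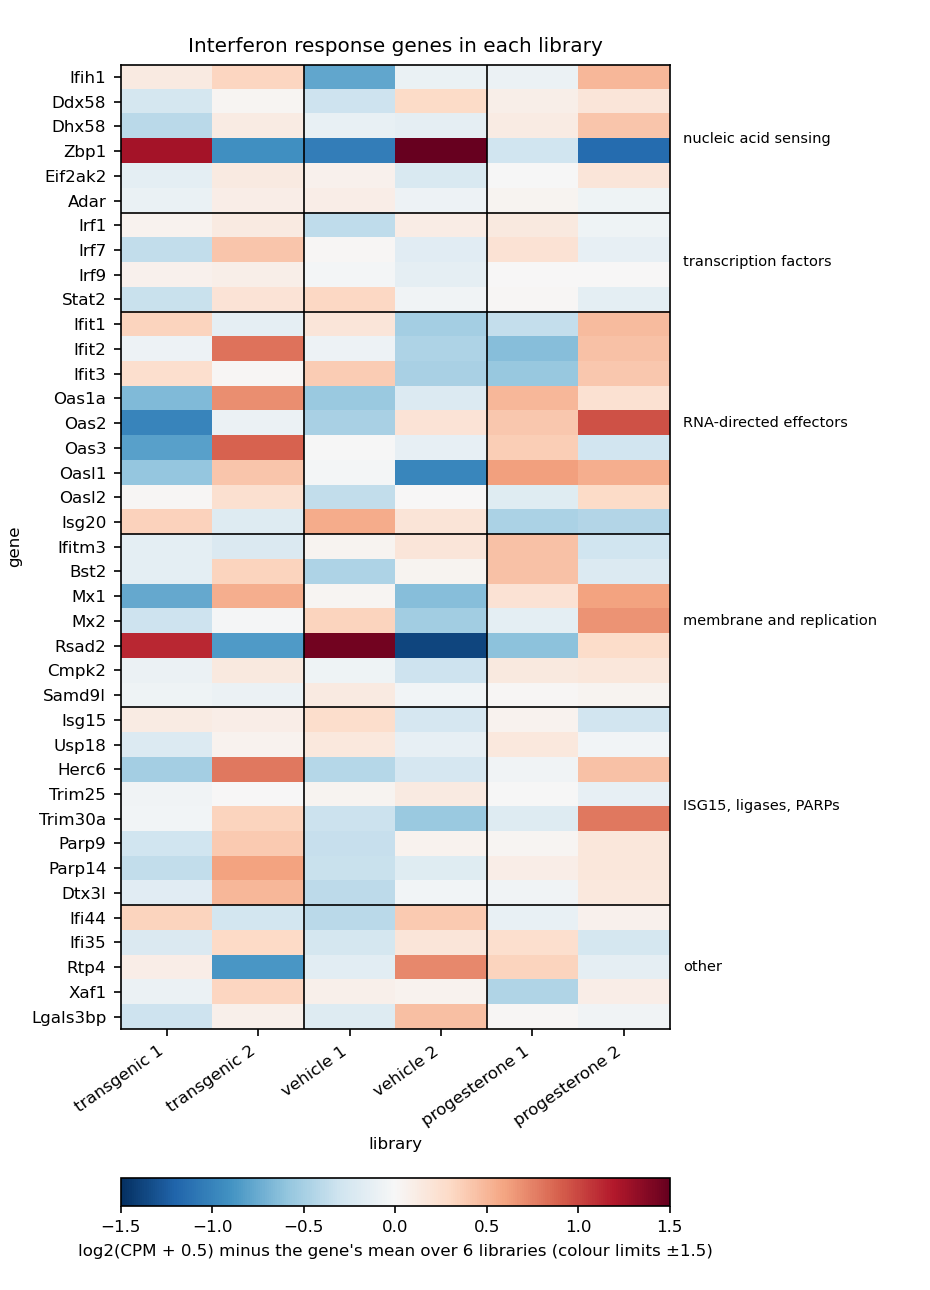
Heat map of log2(CPM + 0.5) minus each gene's mean over the 6 libraries, with genes in rows by role and libraries in columns by group; the colour scale ends at ±1.5. Transgenic library 2 and progesterone library 2 are red for many RNA-directed effectors and ligases, while Zbp1 and Rsad2 each have 2 strongly raised libraries in different groups.

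Among the genes of nucleic acid sensing, Ifih1, Ddx58 and Dhx58 encode the cytosolic RNA helicases MDA5, RIG-I and LGP2. Ifih1 had 5.45 and 6.28 CPM in transgenic libraries 1 and 2, 2.64 and 4.56 in vehicle, and 4.598 and 7.16 in progesterone libraries. Both vehicle libraries therefore lay below all 4 others, though vehicle library 2 and progesterone library 1 were almost level. The log2 fold change of vehicle against transgenic was -0.71 ± 0.43 (standard error, SE; adjusted p = 0.911 by edgeR), and leaving out vehicle replicate 1 or 2 gave -0.36 or -1.15. Dhx58 ran from 3.30 to 6.25 CPM and Ddx58 from 24.4 to 37.3 CPM. The double-stranded RNA-activated kinase PKR (Eif2ak2) had 62.5 and 75.5 CPM in transgenic, 72.3 and 58.9 in vehicle, and 68.5 and 78.1 in progesterone libraries. The RNA-editing enzyme Adar had 57.9 and 66.8, 67.0 and 59.2, and 64.0 and 59.3 CPM in the same order. Both were abundant and even, with the highest library 1.32-fold and 1.16-fold above the lowest, and their groups overlapped in each comparison.

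The Z-form nucleic acid sensor Zbp1 (ENSMUSG00000027514, chr2:173206612-173218923, GRCm38), which couples sensing to necroptosis, differed most between libraries of all 39 genes. It had 54.4 CPM in transgenic library 1 and 11.8 in library 2, 10.8 in vehicle library 1 and 103 in library 2, and 18.4 and 9.93 in progesterone tumours. The 2 high libraries were in different groups, and each had a partner at a level near that of the progesterone libraries. Its 10.4-fold range thus ran from progesterone library 2 to vehicle library 2, and the vehicle pair alone spanned nearly all of it. The log2 fold change of progesterone against vehicle was -2.0 ± 1.05 (adjusted p = 0.954 by edgeR), and without vehicle replicate 2 it was 0.39. Progesterone against transgenic gave -1.22 ± 1.03 (adjusted p = 0.963 by edgeR), and 0.27 without transgenic replicate 1.

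The transcription factors of the response differed in their evenness. Irf1, an early activator induced by both interferon types, had 72.7 and 77.1 CPM in transgenic, 53.7 and 75.6 in vehicle, and 77.7 and 67.3 in progesterone libraries. Stat2 had 23.7 and 34.7, 37.5 and 29.0, and 30.5 and 27.1 CPM. Irf7, the amplifier of interferon alpha transcription, had 4.59 and 8.30, 6.14 and 5.35, and 7.15 and 5.54 CPM. In each of the 3 the groups overlapped, with vehicle library 1 the lowest for Irf1 and the highest for Stat2 and transgenic library 1 the lowest for Stat2 and Irf7. Irf9, the DNA-binding partner in ISGF3, stayed within 18.6 to 21.7 CPM, a 1.17-fold range. Its groups did not overlap in any comparison, but the steps were small: the log2 fold change was -0.16 ± 0.20 for vehicle against transgenic, 0.09 ± 0.20 for progesterone against vehicle and -0.07 ± 0.20 for progesterone against transgenic.

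Among the RNA-directed effectors, the IFIT proteins bind viral RNA ends. Ifit2 (chr19:34550694-34576419) was the most abundant of the 3 per kb and had 22.4 and 42.1 CPM in transgenic, 22.5 and 17.1 in vehicle, and 15.1 and 32.2 in progesterone libraries. The higher library of the transgenic and of the progesterone pair was library 2 in each. Ifit1 ran from 1.80 to 4.05 and Ifit3 from 1.82 to 4.05 CPM. These neighbours on chromosome 19, which lie 52.1 kb apart, both had their highest value in progesterone library 2. Ifit3 has a close copy, Ifit3b (0.309 to 1.24 CPM), and reads shared between the copies make their separate values uncertain.

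The 2′-5′ oligoadenylate synthetases make the messenger that activates RNase L, and the OASL proteins are their relatives. Oas2 (ENSMUSG00000032690, chr5:120730333-120749853) had 1.82 and 3.84 CPM in transgenic, 2.78 and 4.82 in vehicle, and 5.60 and 8.40 in progesterone libraries. Both progesterone libraries lay above all 4 others. Its log2 fold change of progesterone against transgenic, 1.31 ± 0.52, had an unadjusted p of 0.0406 and an adjusted p of 0.914 by edgeR. Leaving out transgenic replicate 1 gave 0.86, and leaving out transgenic replicate 2 gave 1.94. Against vehicle Oas2 had 0.88 ± 0.52 (adjusted p = 0.980 by edgeR).

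Oasl1, reported to restrain IRF7 translation, had 1.78 and 4.05 CPM in transgenic, 2.81 and 1.22 in vehicle, and 4.71 and 4.47 in progesterone libraries, so that the progesterone libraries were again the 2 highest, close above transgenic library 2. Progesterone against vehicle gave 1.17 ± 0.59 (adjusted p = 0.944 by edgeR), with 0.70 without vehicle replicate 2 and 1.90 without vehicle replicate 1. Oas3, next to Oas2 at a distance of 3.24 kb, did not place the progesterone pair highest: it had 1.74 and 6.79, 3.43 and 3.13, and 4.598 and 2.73 CPM, with the lowest and the highest value both in the transgenic pair. Oas1a ran from 2.56 to 7.33 CPM, with the lowest and the highest in the transgenic pair too, and belongs to a family of close copies whose reads may be shared. Oasl2 ran from 9.02 to 14.5 CPM.

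Isg20 (ENSMUSG00000039236, chr7:78913424-78920396), a 3′ exonuclease that degrades single-stranded RNA, had its lowest values in the progesterone pair. It had 15.4 and 10.5 CPM in transgenic, 17.9 and 13.8 in vehicle, and 8.4999 and 8.77 in progesterone libraries. Both progesterone libraries lay below the other 4. The log2 fold change was -0.88 ± 0.30 for progesterone against vehicle, the smallest unadjusted p of the 39 genes there (0.0226; adjusted p = 0.935 by edgeR). For progesterone against transgenic it was -0.59 ± 0.30 (adjusted p = 0.914 by edgeR), and -0.28 without transgenic replicate 1. Of the 9 RNA-directed effectors, 7 had positive and 2 negative log2 fold changes in progesterone against vehicle, and 0 passed the test.

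The membrane and replication effectors held the most abundant and the rarest genes of the set. Ifitm3 (chr7:141009586-141010770), which blocks fusion of virus with endosomes, had 335 and 317 CPM in transgenic, 381 and 417 in vehicle, and 500.1 and 299 in progesterone libraries. The progesterone pair thus held the highest and the lowest value. Its log2 fold change was 0.00 ± 0.25 for progesterone against vehicle and 0.29 ± 0.25 for progesterone against transgenic, and the second became -0.13 without progesterone replicate 1. Bst2 had 44.6 and 62.2, 35.7 and 50.7, and 67.2 and 42.9 CPM, with each pair overlapping the others. Samd9l, a restriction factor of poxviruses, was even at 43.8 to 51.4 CPM.

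Rsad2 (ENSMUSG00000020641, chr12:26442746-26456452) encodes viperin, which makes a chain-terminating nucleotide from CTP, and was second in range with 8.36-fold. It had 16.2 and 3.75 CPM in transgenic, 20.4 and 2.44 in vehicle, and 4.48 and 8.77 in progesterone libraries. As in Zbp1, a high and a low library stood side by side in both the transgenic and the vehicle pair. In the vehicle pair, however, the high library was 1 for Rsad2 and 2 for Zbp1. Cmpk2, a mitochondrial nucleotide kinase whose start lies 12.8 kb from that of Rsad2 on the other strand, showed no such split. Its level stayed within 2.12 to 3.14 CPM, with both progesterone libraries just above transgenic library 2 at 3.08 CPM.

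The dynamin-like GTPase genes Mx1 and Mx2 were low. Mx1 had 0.630 and 2.32 CPM in transgenic, 1.48 and 0.742 in vehicle, and 1.74 and 2.44 in progesterone libraries, from 14 to 59 counts. The progesterone pair lay above the vehicle pair (log2 fold change 0.90 ± 0.74, adjusted p = 0.999 by edgeR) and overlapped the transgenic pair. Many inbred mouse strains carry a defective Mx1 allele, and the counts do not show which allele was transcribed. Mx2 ran from 0.477 to 1.74 CPM.

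ISG15 is a ubiquitin-like protein that HERC6 attaches to targets in mice and USP18 removes, and USP18 also damps the receptor. Isg15 (chr4:156199424-156200818) had 5.30 and 5.23 CPM in transgenic, 5.90 and 3.98 in vehicle, and 5.02 and 3.85 in progesterone libraries, a 1.53-fold range. Usp18 stayed within 2.26 to 3.05 CPM. Herc6 (chr6:57581000-57664632) was not as even: it had 12.4 and 31.2, 13.1 and 14.9, and 17.2 and 24.4 CPM. Transgenic library 2 was thus the highest and transgenic library 1 the lowest, and the progesterone pair lay above the vehicle pair (0.57 ± 0.43, adjusted p = 0.999 by edgeR). The gene of the ligase, Herc6, and Isg15 itself therefore differed in their spread over the same tumours, 2.52-fold against 1.53-fold.

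Trim25, the ubiquitin ligase of RIG-I, was abundant and even at 106 and 111 CPM in transgenic, 114 and 121 in vehicle, and 110 and 102 in progesterone libraries. Trim30a (ENSMUSG00000030921, chr7:104409025-104465193), an induced regulator of Toll-like receptor signalling with close copies at its locus, had 14.1 and 18.4, 11.5 and 9.70, and 12.7 and 25.5 CPM. Both vehicle libraries were the lowest of the 6. The log2 fold change of progesterone against vehicle was 0.85 ± 0.37 (adjusted p = 0.944 by edgeR), and 0.26 without progesterone replicate 2. Vehicle against transgenic gave -0.62 ± 0.37 (adjusted p = 0.906 by edgeR), the smallest adjusted p of the 39 genes in that comparison.

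Parp9, Dtx3l and Parp14 lie together on chromosome 16 and act in ADP-ribosylation. The DTX3L and PARP9 proteins form a complex, and their genes overlap by 682 bases on opposite strands. Parp14 had 22.6 and 44.8 CPM in transgenic, 23.2 and 25.8 in vehicle, and 31.4 and 33.1 in progesterone libraries. Parp9 ran from 20.4 to 34.4 and Dtx3l from 17.0 to 31.9 CPM. All 3 were highest in transgenic library 2, and for Parp14 the progesterone pair also lay above the vehicle pair (0.40 ± 0.32, adjusted p = 0.999 by edgeR).

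Of the remaining induced genes, Lgals3bp had 48.9 and 64.1 CPM in transgenic, 53.1 and 83.3 in vehicle, and 61.4 and 58.2 in progesterone libraries. Ifi35 had 21.9 and 31.4, 21.1 and 28.8, and 30.3 and 21.1 CPM. Both genes had groups that overlapped in each comparison. Rtp4, which encodes a receptor-transporting protein, had 23.6 and 11.7, 19.7 and 36.6, and 27.8 and 19.98 CPM, with its lowest value in transgenic library 2, where many of the set were highest. Its log2 fold change of vehicle against transgenic, 0.67 ± 0.42 (adjusted p = 0.911 by edgeR), dropped to 0.16 when vehicle replicate 2 was left out and was 1.26 when transgenic replicate 1 was left out. Ifi44 had 3.04 and 1.81, 1.61 and 3.18, and 2.09 and 2.44 CPM. Xaf1, a pro-apoptotic gene, ran from 6.14 to 10.9 CPM.

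**Figure D3:**
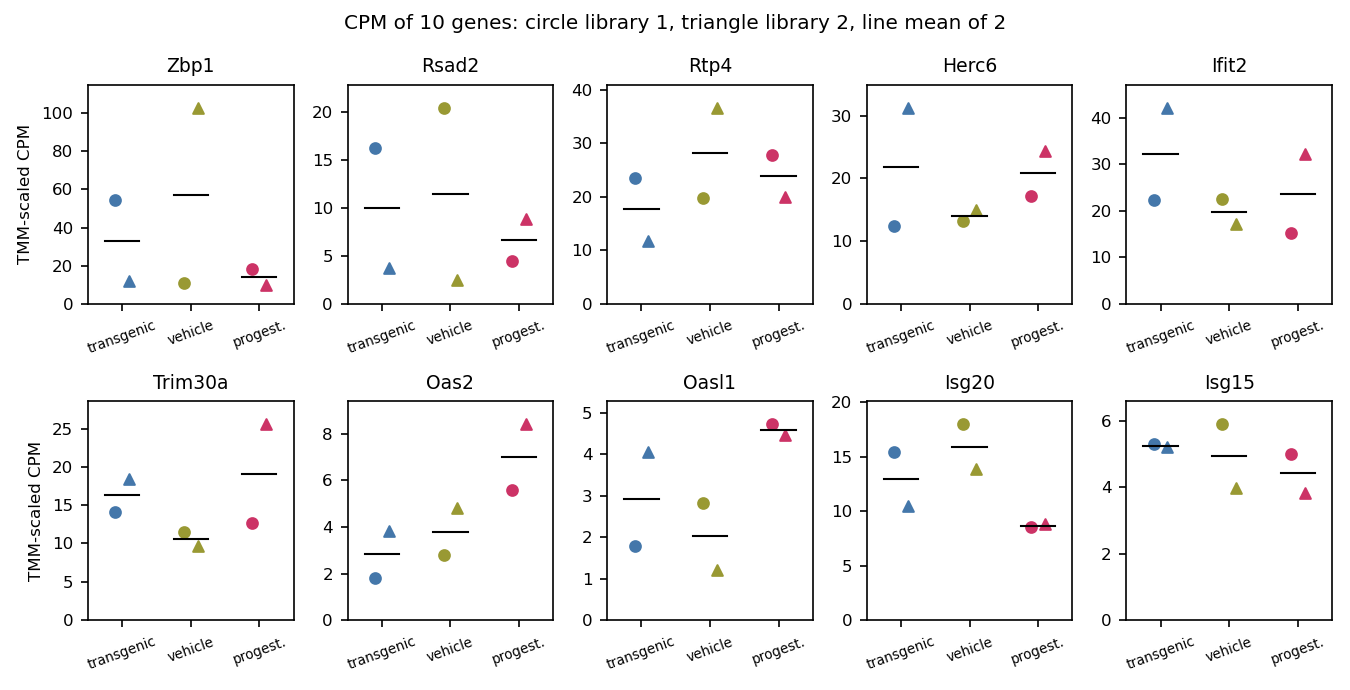
CPM of 10 genes in each library (circle, library 1; triangle, library 2), with a line at the mean of the 2 libraries and axes that start at 0. Zbp1 and Rsad2 split the transgenic and the vehicle pairs, both progesterone libraries are the highest for Oas2 and Oasl1 and the lowest for Isg20, and Isg15 stays between 3.85 and 5.90.

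In vehicle against transgenic tumours, which differ by ovariectomy and by vehicle together, 0 of the 39 genes were called at an adjusted p under 0.05 by edgeR, as were 0% of all 13632 genes. DESeq2 called 0 of the 38 to which it gave an adjusted p, against 0.517% of all genes, and limma-voom 0 of 39, against 0%. At an unadjusted p under 0.05 there were 0 of 39, against 5.57% of all genes. The vehicle libraries lay above both transgenic libraries for 3 genes (7.69%, against 17.9% of all genes), namely Ifitm3, Samd9l and Trim25. They lay below both for 4 (10.3%, against 17.7%), namely Ifih1, Irf9, Oasl2 and Trim30a. The median log2 fold change was -0.10, with 14 positive and 25 negative, against a median of -0.01 over all genes. Without transgenic replicate 2 the median was 0.13, with 25 positive and 14 negative. For 35 of the 39 genes (89.7%, against 77.3% of all genes), the larger of the 2 differences within a group exceeded the difference between the group means. By the same measure there were 29 (74.4%, against 75.6%) in progesterone against vehicle and 35 (89.7%, against 82.4%) in progesterone against transgenic. High shares are built into this measure, as it sets single libraries against group means.

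In progesterone against vehicle tumours, 0 of the 39 were called by edgeR, DESeq2 or limma-voom, against 0%, 0.579% and 0% of all genes. By edgeR 1 (Isg20) had an unadjusted p under 0.05, against 5.29% of all genes. The progesterone libraries lay above both vehicle libraries for 11 of the 39 (28.2%, against 18.5% of all genes). These were Cmpk2, Dhx58, Herc6, Ifih1, Irf9, Mx1, Oas1a, Oas2, Oasl1, Parp14 and Trim30a. They lay below both for 2 (5.13%, against 17.8%), Isg20 and Trim25. The median log2 fold change was 0.16, with 26 positive and 13 negative, against 0.01 over all genes. With each library left out in turn it ran from 0.08 to 0.26, the lowest without progesterone replicate 1 and the highest without vehicle replicate 2. Summed macrophage markers were 1621 and 1901 CPM in vehicle and 2960 and 2554 CPM in progesterone tumours, and their part in these differences was not tested.

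In progesterone against transgenic tumours, 0 of the 39 were called by edgeR, DESeq2 or limma-voom, against 0%, 0.282% and 0% of all genes. By edgeR 1 (Oas2) had an unadjusted p under 0.05, against 5.27% of all genes. The progesterone libraries lay above both transgenic libraries for 6 of the 39 (15.4%, against 14.5% of all genes) and below both for 3 (7.69%, against 14.5%). The 6 were Cmpk2, Ddx58, Dhx58, Oas2, Oasl1 and Samd9l, and the 3 were Irf9, Isg15 and Isg20. The median was -0.02, with 18 positive and 21 negative, against 0.01 over all genes; with upper-quartile scaling it was 0.01, with 22 positive and 17 negative. It was 0.23 without transgenic replicate 2. The 3 comparisons share groups, so their values are not independent of each other.

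**Figure D4:**
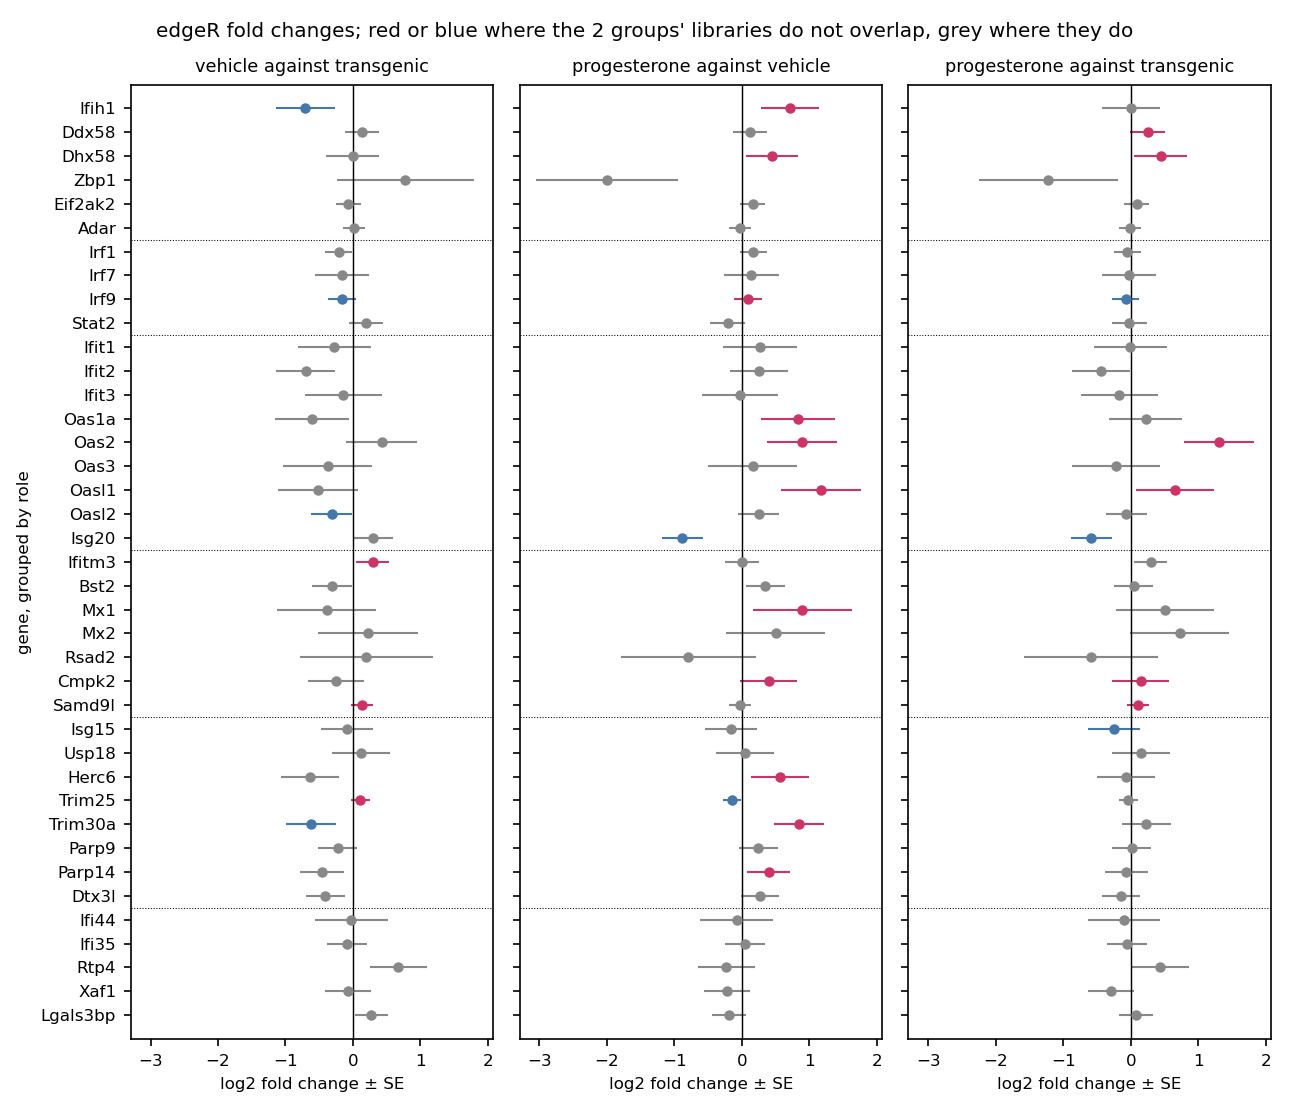
Log2 fold change (point) with its standard error (bar) for the 39 genes in the 3 comparisons, in red where both libraries of the first group lay above both of the second, in blue where they lay below and in grey where they overlapped. No point passed the test, the widest bars belong to Zbp1 and Rsad2, and progesterone against vehicle has 11 red and 2 blue points.

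Upstream of these genes, transcripts of the interferons themselves were close to absent. Of 20 ligand genes listed, 10 had a row in the table, and each of the 10 had at most 2 counts in any library. Ifnb1 had 0 and 0 counts in transgenic, 2 and 1 in vehicle, and 2 and 0 in progesterone libraries. Ifng had 1 and 2, 0 and 1, and 1 and 1 counts. All 10 lay at or under the limit of 3 counts, so no difference was detectable at this depth. The receptor genes were well covered: Ifnar1 had 63.0 to 88.2 and Ifnar2 10.9 to 18.0 CPM. Of 14 tested genes for receptors and JAK-STAT signalling, 0 passed the test in any comparison by edgeR.

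Of 16 tested adaptors, kinases and sensors that lead to interferon, 0 passed the test in any comparison by edgeR. The endosomal RNA receptor Tlr7 had 5.48 and 14.2 CPM in transgenic, 5.69 and 5.35 in vehicle, and 11.4 and 13.4 in progesterone libraries, with a log2 fold change of 1.17 ± 0.46 in progesterone against vehicle (adjusted p = 0.939 by edgeR). Tlr8, a related receptor, had 2.74 and 11.4, 4.43 and 5.04, and 7.96 and 9.19 CPM. For both, the progesterone libraries lay above the vehicle libraries. In 47 tested genes of a further list of type I induced genes, 0 passed in any comparison by edgeR. Their median was -0.28 in vehicle against transgenic (13 positive, 34 negative; 0.02 without transgenic replicate 2) and 0.25 in progesterone against vehicle (37 positive, 10 negative). In the latter 23 of the 47 had progesterone libraries above both vehicle libraries (48.9%, against 18.5% of all genes). Ifi27l2a and Ifi205 had 28.6 and 23.05 CPM in progesterone library 2, and 1.26 to 3.60 CPM in the other 5 libraries. The fibroblast marker Col1a2 had 1082 CPM in progesterone library 2 as well, against 9.96 to 107 CPM in the other 5. Summed fibroblast markers were 5330 and 10572 CPM in progesterone libraries 1 and 2, and 11736 CPM in vehicle library 2. Dcn and Dpt were lower in progesterone library 2 than in library 1. The part of these cells in the values was not tested.

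Genes induced mainly by interferon gamma were listed separately. Of 15 tested, 0 passed by edgeR, and all 15 had negative log2 fold changes in vehicle against transgenic, with a median of -1.42 (-0.69 without transgenic replicate 2, with 14 of 15 negative). In progesterone against vehicle all 15 were positive, with a median of 0.86, and 14 of 15 were without progesterone replicate 1 (median 0.57). In progesterone against transgenic the median was -0.49 (2 positive, 13 negative), and without transgenic replicate 2 it was 0.35 (9 positive, 6 negative). The immunity-related GTPase Iigp1 had 12.4 and 49.8 CPM in transgenic, 2.40 and 2.65 in vehicle, and 13.02 and 7.45 in progesterone libraries. The T cell attractant Cxcl9 had 2.56 and 35.7, 0.274 and 0.583, and 8.46 and 1.41 CPM. The medians of the 39 genes were -0.10 in vehicle against transgenic and 0.16 in progesterone against vehicle. The difference between the lists was not tested, and the lists were chosen with earlier results of these data known. Summed T cell markers (10 genes, of which 7 passed the filter) were 3.33 and 14.2 CPM in transgenic, 2.09 and 1.64 in vehicle, and 6.95 and 5.71 in progesterone libraries. Vehicle library 2, the library with the fewest counts in all, had 0 counts of Cd4, Cd8a and Cd2. It had 1 to 4 counts of Cd3d, Cd3e, Cd3g, Cd8b1, Cd5 and Trac, and 16 of Lck. Cd8a had 0.259 and 3.58, 0.172 and 0, and 0.657 and 0.372 CPM. Summed NK and cytotoxic markers were 7.48 and 22.5, 3.64 and 14.9, and 7.73 and 4.39 CPM. Gzmb (8.72 and 4.93 CPM) and Prf1 (8.34 and 7.58 CPM) made up most of the sum in transgenic library 2 and vehicle library 2. Of the 8 that passed the filter, 7 had negative log2 fold changes in vehicle against transgenic. Ncr1 was the only positive one, at 0.185 and 0.295, 0.377 and 0.583, and 0.850 and 0.538 CPM. The plasmacytoid dendritic cell gene Siglech, of a cell type known for making interferon alpha, had 0.0741 and 0.590 CPM in transgenic, 0 counts in both vehicle, and 1.43 and 1.65 CPM in progesterone libraries. Its list of 8 markers, of which 5 passed the filter, summed to 498 and 454, 459 and 579.7, and 370 and 464 CPM, most of it Tcf4. Of those 5, 3 had positive and 2 negative log2 fold changes in vehicle against transgenic. In progesterone against vehicle 3 were also positive and 2 negative. The part of these cells in the values of the 39 genes was not tested.

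**Figure D5:**
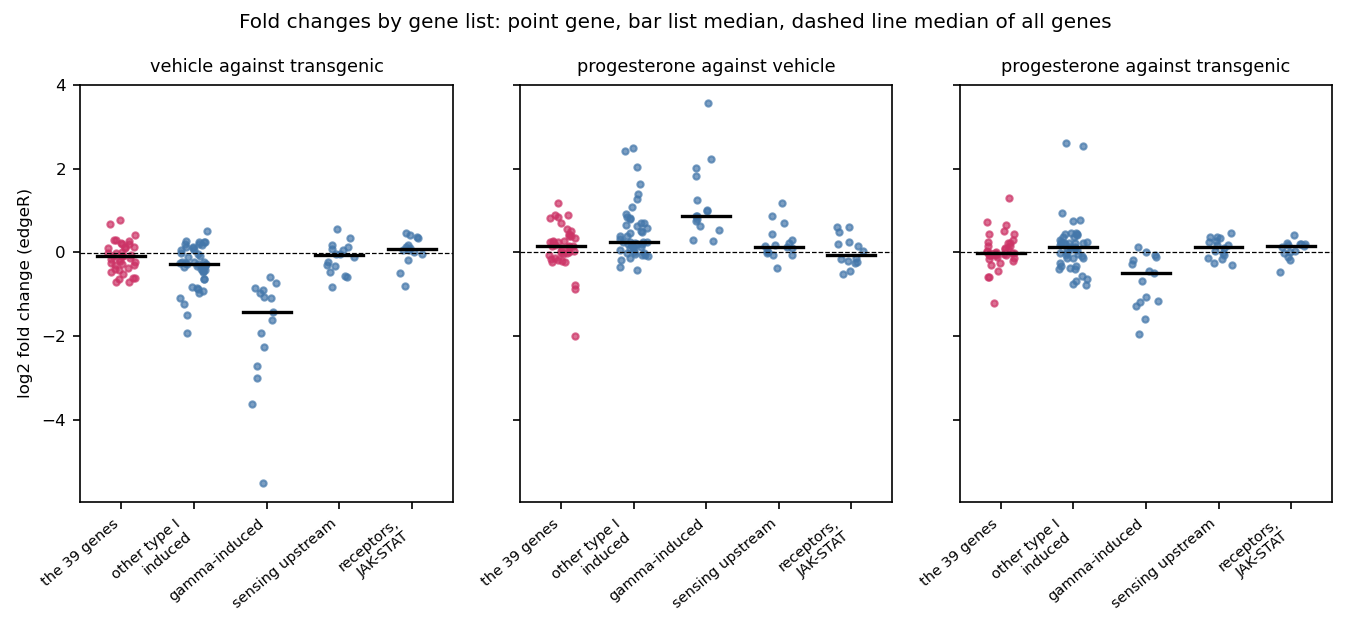
Log2 fold changes in the 3 comparisons for the 39 genes (red) and for 4 other lists of the pathway (blue), with a bar at each list's median and a dashed line at the median of all genes tested. The 39 genes have medians of -0.10, 0.16 and -0.02. The genes induced mainly by interferon gamma have medians of -1.42, 0.86 and -0.49, the last of which was 0.35 without transgenic replicate 2. The lists were chosen with earlier results of these data known, and the difference between them was not tested.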

How the data were processed

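The table deposited by the authors holds unnormalized read counts by Ensembl gene ID for 6 libraries. Per the submitters' processing notes the build was GRCm38.p6 and the tools included DESeq, HISAT2 and HTSeq, with versions, settings and strand use not given in the sources used here. Per the labels' protocols, RNA was extracted with TRIzol and made into directional mRNA libraries. Of 19288 gene IDs, 19284 were found in GENCODE M21 (GRCm38), the source of coordinates (1-based) and exon lengths. No count column was left unused. Overlapping or related genes (Parp9 with Dtx3l, Rtp4 with Masp1, Ifit, Oas, Trim30 and Mx copies) may share reads.

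In R 4.3.3, edgeR 4.0.16 filtered genes (filterByExpr), scaled by TMM and fitted a quasi-likelihood model (glmQLFTest) with a mean for each group; 3 residual degrees of freedom were left from the 6 libraries. Calls required that p, adjusted by Benjamini-Hochberg over 13632 genes, be under 0.05. Alternatives were other scalings and filters, DESeq2 1.42.0, limma-voom (limma 3.58.1), only the groups compared, a replicate block, and each library left out. Values in all libraries are given for the 2 most abundant and the 2 most variable genes of each role and the 2 genes of each direction with the smallest p per comparison; others were chosen after their values were seen (Oas1a, Isg15, Usp18, Irf9 and Cmpk2 among them). The members and lists were chosen with earlier results of these data known. Floors cover counting error only, as no molecular identifiers are named in the labels.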

Additional observations from a re-analysis of the deposited data

How the results depend on the processing

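No member of the set was called in any comparison under any alternative: 2 other scalings, 2 other filters, DESeq2, limma-voom, only the 2 groups compared, a replicate block, and each library left out in turn (range 0 to 0 in each comparison). Over all genes edgeR called 0 in each comparison, also with each library left out (0 to 0). DESeq2 called 63 in vehicle against transgenic, 77 in progesterone against vehicle and 47 in progesterone against transgenic, and edgeR without a low-count filter called 12, 92 and 28; the cause was not tested.

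The median log2 fold change of the 39 genes ran from -0.20 to 0.13 in vehicle against transgenic, from 0.08 to 0.26 in progesterone against vehicle and from -0.092 to 0.23 in progesterone against transgenic with each library left out. Its sign in the first turned only without transgenic replicate 2, and in the third, where it was -0.02, it was also above 0 with limma-voom (0.04), upper-quartile scaling (0.01), the replicate block (0.02) and without either progesterone library. Ranges with each library left out included a change of sign for Zbp1 (-2.86 to 0.39 in progesterone against vehicle, -1.94 to 0.27 in progesterone against transgenic) and Ifitm3 (-0.13 to 0.62 in progesterone against transgenic). A group left with 1 library is assumed there to vary like the others.

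Library numbers were checked for pairing by the correlation, across 13632 genes, of library 1's deviation from its group mean: 0.045 between transgenic and vehicle, -0.127 between transgenic and progesterone and -0.050 between vehicle and progesterone. The numbers were therefore not taken to pair libraries. With the replicate block, 0 genes and 0 members were called in each comparison, and the medians were -0.12, 0.15 and 0.02. With the numbers of the progesterone libraries crossed, chosen after seeing the data, 0 genes were called in progesterone against transgenic.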
